A study of Mus musculus with 26 samples.

Results

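The semaphorin and ephrin genes of mice, together with the receptors that read them, were followed in the initial segment (IS) and caput of the epididymis and in the testis. Members were all genes of the count tables whose symbols begin Sema, Plxn, Eph or Efn followed by a family letter or number, plus *Nrp1* and *Nrp2*. That gave 53 of 23337 genes: 20 semaphorins, 9 plexins, 2 neuropilins, 8 ephrins and 14 Eph receptors. ArKI is the name the labels give to a knock-in genotype whose allele is present in every cell and restricted to no tissue. WT mice lack the allele, and all animals were 3 months old and of one strain label, C57Bl/6N; 129 hybrid. RNA of 5 ArKI and 5 WT samples of the IS, 5 and 5 of the caput, and 3 and 3 of the testis was sequenced, 26 samples in all.

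Semaphorins are guidance cues that bind plexins. Class 3 members are secreted, and most of them bind a neuropilin that forms a complex with an A-type plexin, while classes 4 to 7 are held at the cell surface. Neuropilins also bind vascular endothelial growth factors. Ephrins are membrane-bound ligands, anchored by a lipid in the A class and by a transmembrane stretch in the B class, and their Eph receptors are receptor tyrosine kinases that act at contacts between cells. Both systems were described first in growing axons and are also used by blood vessels and by epithelia, where they set boundaries, adhesion and cell shape. The IS is the first, lumicrine-dependent stretch of the epididymal duct and the caput the stretch that follows it, both lined by principal cells.

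Levels are given as CPM (counts scaled to a fixed library total) on one TMM scale over all samples and, where genes are compared with each other, as CPM per kb of exon (RPKM). Total counts spanned 5829074 to 9770625 in the IS, 4125768 to 11913469 in the caput and 14077013 to 21376604 in the testis, where 3 counts are worth between 0.173 and 0.641 CPM over all groups. Epididymis and testis were sequenced in separate batches, so tissue and batch cannot be told apart. The shallowest library, replicate 2 of the caput ArKI group, also held the most fibroblast RNA, 2164 CPM summed over 6 collagen and stroma markers against 772 to 1260 in the other 9 caput libraries. *Rnase10*, a secreted protein of IS principal cells, was at 7352 to 10424 CPM in the IS. *Lcn5*, a caput lipocalin, was at 9386 to 16377 CPM in the caput against 37.9 to 107.9 CPM in the IS. The other caput markers listed did not separate the segments in that way. *Lcn8* was at 8742 to 13522 CPM in the IS and 26.9 to 1087 CPM in the caput, and *Gpx5* and *Adam7* overlapped between the segments. *Rnase10* also varied from 149 to 1301 CPM among the 10 caput libraries.

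In WT tissue *Sema4a* and *Plxnb2* were among the 5 members with the highest levels per length in the IS, the caput and the testis, while the order of the leading genes differed. In WT IS the highest level per length belonged to *Sema4a*, a transmembrane class 4 ligand, at 47.4 ± 2.28 RPKM (SD, n = 5). It was followed by the lipid-anchored *Sema7a* at 31.7 ± 4.21, secreted *Sema3b* at 25 ± 1.71, the receptor *Plxnb2* at 23.1 ± 0.667 and secreted *Sema3c* at 21 ± 1.09 RPKM. Among the next 5, *Epha1*, *Plxna1*, *Efnb1*, *Ephb6* and *Sema4c*, levels lay between 9.22 and 15.2 RPKM, and *Efnb1* and *Ephb6* differed by less than their SDs. In WT caput *Sema3c* led at 44 ± 3.61 RPKM, ahead of *Sema4a* at 31.8 ± 2.56 and *Plxnb2* at 29.6 ± 1.33. *Sema4a* and *Plxnb2* differed by less than the SD of *Sema4a* but by more than that of *Plxnb2*. *Ephb6*, an Eph receptor without kinase activity, followed at 21.6 ± 1.85 RPKM, and the ligand *Efna1* stood at 16.3 ± 1.43 RPKM. *Efnb1*, *Epha1*, *Sema4b*, *Plxna1* and *Sema3b* filled the next places, between 6.74 and 11 RPKM. In WT testis *Plxnb2* was first at 31.1 ± 1.95 RPKM (SD, n = 3), then *Sema7a* at 17.2 ± 0.303, and *Sema5b*, *Sema4a* and *Plxna1* between 11.1 and 12.4 RPKM. *Sema6c*, *Sema4c*, *Efnb1*, *Epha10* and *Plxnc1* completed the testis list, between 3.8 and 7.44 RPKM. Exons of *Efna3*, *Efna4*, *Epha1*, *Plxna1* and *Sema4c* overlap a gene on the other strand over 6.01% to 14.1% of their length, and the strand setting of the counting is not stated, so reads of both strands cannot be told apart there.

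**Figure D1:**
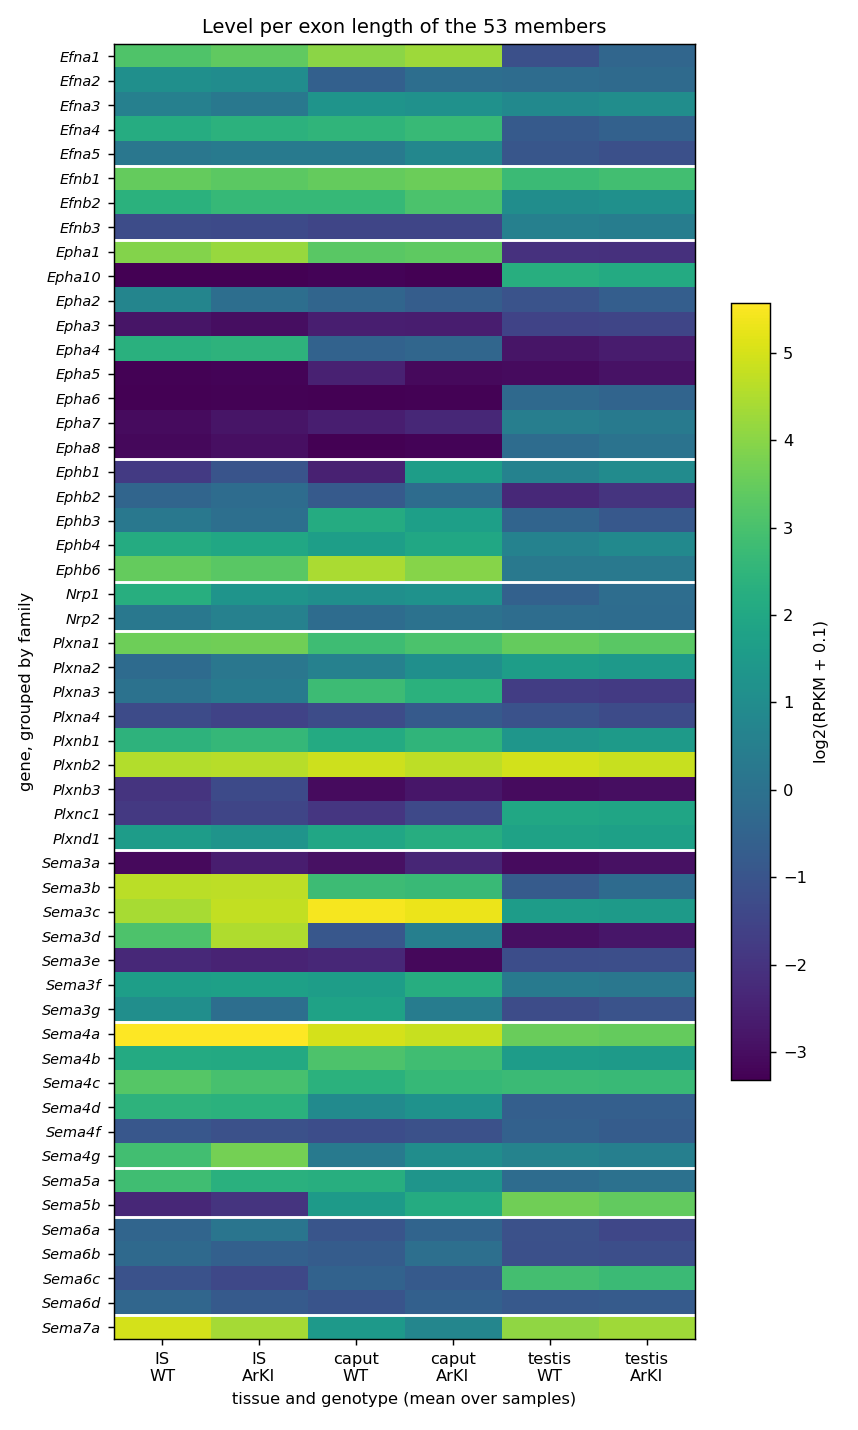
Mean level per exon length of the 53 members (rows, grouped by family) in the 6 groups (columns), coloured by log2(RPKM + 0.1). Sema4a, Sema3c and Plxnb2 are bright in both epididymal segments, whereas Epha10, Epha6 and Epha8 leave the darkest shade in the testis columns.

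The WT caput differed from the WT IS in most members, as it did in most genes tested. Of 42 tested, 15 were higher in the caput, where the share over all genes was 35.4%, and 19 were lower, against 35.8% of all genes. The segments may share mice, but which samples do is not given, so this test treats all samples as separate. *Sema5b*, a transmembrane ligand with thrombospondin repeats, had the largest difference in favour of the caput, with 1.49, 0.434, 0.589, 0.402 and 0.589 CPM in the IS samples and 22.5, 21.9, 17.5, 15.5 and 19.7 CPM in the caput samples (log2 fold change 4.77, SE 0.21, adjusted p = 1.8e-13). *Plxna3*, a receptor of class 3 semaphorins, came next at 8.27, 7.81, 5.54, 6.44 and 7.75 CPM against 57, 48.3, 51.9, 52.2 and 55.5 CPM (log2 fold change 2.88 ± 0.089, ± SE). Neither gene's segments overlapped. The other leading differences towards the caput were *Ephb3* (1.98 ± 0.10), *Sema3c* (1.07 ± 0.056) and *Sema4b* (1.01 ± 0.076). In the opposite direction *Sema3d*, a secreted class 3 ligand, was -4.30 (SE 0.31), *Sema7a* -3.57 (SE 0.13), the Eph receptor *Epha4* -3.05 (SE 0.11), *Sema4g* -2.65 (SE 0.11) and *Sema3b* -1.89 (SE 0.065) on the log2 scale. Both neuropilins were lower in the caput, *Nrp1* by more (-1.17) than *Nrp2* (-0.46). Among plexins, *Plxna2* (0.85), *Plxnb2* (0.37) and *Plxnd1* (0.36) were higher and *Plxna1* (-0.80) and *Plxnb1* (-0.33) lower in the caput, while *Plxna4* (0.018) and *Plxnc1* (-0.091) did not pass. Without the 3 caput libraries that held the most IS RNA, of which 2 were WT, 14 members were higher and 22 lower, and the value of *Sema3d* went to -5.35. Of 9 endothelial markers 8 were lower in the WT caput and 1 higher, as were those of macrophages. Sperm and late spermatid markers were higher in 10 of 10, clear and narrow cell markers higher in 5 of 6 and lower in 1, and smooth muscle markers higher in 3 of 7 and lower in 2. Their part in these differences was not tested.

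The promoters of *Ephb1*, *Sema3d* and *Sema3g* are shown because these were the members that passed between ArKI and WT in both segments with groups apart and changed by over 2-fold in the caput. The stretches are the 250 bases before the RefSeq start site on GRCm38.p6, read 5′ to 3′ on the strand of the gene, with each CG dinucleotide in capitals.
Ephb1, chr9:102354694-102354943, minus strand: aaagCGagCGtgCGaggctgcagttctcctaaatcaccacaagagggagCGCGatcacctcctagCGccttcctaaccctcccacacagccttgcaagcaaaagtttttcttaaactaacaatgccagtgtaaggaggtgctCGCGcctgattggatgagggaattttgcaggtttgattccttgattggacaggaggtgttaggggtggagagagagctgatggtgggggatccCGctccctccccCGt
Sema3d, chr5:12382916-12383165, plus strand: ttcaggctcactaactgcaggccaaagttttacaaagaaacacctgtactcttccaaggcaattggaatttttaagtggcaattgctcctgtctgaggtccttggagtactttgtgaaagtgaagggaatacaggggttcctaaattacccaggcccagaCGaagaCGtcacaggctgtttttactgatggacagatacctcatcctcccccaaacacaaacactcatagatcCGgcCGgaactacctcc
Sema3g, chr14:31217623-31217872, plus strand: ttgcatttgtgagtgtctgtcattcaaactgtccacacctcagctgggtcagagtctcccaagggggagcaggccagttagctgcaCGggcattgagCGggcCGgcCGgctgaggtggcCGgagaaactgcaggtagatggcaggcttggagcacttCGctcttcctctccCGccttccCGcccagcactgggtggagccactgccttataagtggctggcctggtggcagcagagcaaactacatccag
They hold 10, 4 and 8 CG dinucleotides, where the median window of all genes holds 6 and the median of 61 windows from 47 members holds 16.

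In the IS, 16 members differed between ArKI and WT, and *Sema3d*, *Sema3g*, *Ephb1* and *Nrp1* changed most. Of the 53 members, 43 passed the filter on low counts. Among these 9 were higher in ArKI at an adjusted p below 0.05, against 15% of all genes tested, and 7 were lower, against 14.6% of all genes, so the members passed about as often as genes in general. Ligands gave 11 of the 16 calls, out of 24 ligands tested, and receptors gave 5 out of 19. Under the study's limits, an adjusted p below 0.01 and a fold change above 2, *Sema3d*, *Sema3g* and *Ephb1* remained, where 4.04% of all genes passed. The ArKI and WT samples did not overlap in 12 members, all of them among the 16, against 20.2% of all genes tested. The median log2 fold change was 0.039 over the members, and the median over all genes lay at 0.

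Secreted class 3 semaphorins moved in both directions in the IS. *Sema3d*, whose gene lies at chr5:12383385-12588948 on the plus strand (GRCm38), stood at 62.1, 72.4, 71.5, 86.8 and 64.7 CPM in the WT samples. In ArKI it was at 212, 184, 223, 185 and 176 CPM. The lowest ArKI sample was above the highest WT sample by far more than the spread of either group (log2 fold change 1.46, SE 0.093, adjusted p = 2.2e-07). *Sema3g*, a class 3 ligand known from arterial endothelium, at chr14:31217860-31230352, went the other way. Its WT samples read 8.27, 8.68, 10.4, 7.38 and 10.3 CPM and its ArKI samples 4, 5.47, 2.57, 3.68 and 3 CPM, without overlap (log2 fold change -1.27, SE 0.18, adjusted p = 2.5e-05). *Sema3c* rose by less, from 150.1, 139, 149, 149.6 and 161 CPM to 185, 223, 174, 196 and 187 CPM, again without overlap (log2 fold change 0.37, SE 0.059, adjusted p = 9.3e-05). *Sema3b* (0.039) and *Sema3f* (0.077) did not pass.

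Of the surface-held semaphorins, *Sema5a* and *Sema7a* fell and *Sema4g* and *Sema6a* rose without overlap between groups in the IS. *Sema4g* was at 70.3, 66.5, 47.2, 58.8 and 68 CPM in WT and 114, 107, 104, 126 and 106 CPM in ArKI, with no overlap (log2 fold change 0.84, SE 0.096, adjusted p = 3.4e-05). *Sema6a*, a transmembrane ligand of A-type plexins, also rose (log2 fold change 0.63 ± 0.15). *Sema5a* fell from 131, 131, 134, 136 and 134 CPM to 86.1, 89.5, 94.6, 98.7 and 93.3 CPM (log2 fold change -0.52, SE 0.045, adjusted p = 4.2e-08). *Sema7a*, which signals through *Plxnc1* and integrins, fell from 107, 123, 100.5, 84.5 and 109 CPM to 58.6, 68, 71.9, 71.8 and 65.2 CPM, also without overlap (log2 fold change -0.64, SE 0.087, adjusted p = 8.8e-05). *Sema6d* (-0.50 ± 0.17) and *Sema4c* (-0.25 ± 0.071) fell with overlapping samples. *Sema4a*, the member with the highest level per length here, had a log2 fold change of -0.00074 (SE 0.048) and did not pass. The call of *Sema6d* was lost without ArKI replicate 4 or 5 or WT replicate 1, 4 or 5, with an adjusted p of up to 0.083.

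*Nrp1*, the co-receptor of class 3 semaphorins and vascular growth factors at chr8:128358604-128503363, showed the largest fall among the receptors of the IS. It stood at 40.1, 48.2, 50.6, 47.6 and 42.8 CPM in WT and 24.2, 28.4, 24.6, 20.7 and 17.4 CPM in ArKI, so the groups were well apart (log2 fold change -0.99, SE 0.11, adjusted p = 3.7e-06). *Nrp2* was at 12.5, 11.8, 12.8, 16.9 and 10 CPM and 15.8, 12.7, 23.2, 14.1 and 16.2 CPM and did not pass (log2 fold change 0.37, SE 0.16, adjusted p = 0.1). Of 9 plexins tested, *Plxna2* rose (0.47 ± 0.12) and *Plxnd1*, the plexin of blood vessels, fell (-0.30 ± 0.10), both with overlapping samples. The call of *Plxnd1* was lost without any one of ArKI replicates 1, 3, 4 and 5 or WT replicates 1, 3 and 4, with an adjusted p of up to 0.092. The log2 fold changes of the other plexins were 0.040 for *Plxna1*, 0.37 for *Plxna3*, -0.35 for *Plxna4*, 0.16 for *Plxnb1*, 0.080 for *Plxnb2*, 0.93 for *Plxnb3* and 0.53 for *Plxnc1*, none past the threshold. Cell type markers also moved in the IS. All 9 endothelial markers were lower in ArKI, and their summed level was 161 to 201 CPM in WT and 116 to 141 CPM in ArKI. Smooth muscle markers were lower in 6 of 7, with sums of 3723 to 3970 CPM in WT and 3040 to 3579 CPM in ArKI, and no marker of either list was at 0. Initial segment principal cell markers were lower in 3 of 4, with sums of 13257 to 14756 CPM in WT and 10494 to 11798 CPM in ArKI. Of the 5 members with the largest differences in favour of WT IS over WT caput, *Sema7a* fell in ArKI IS, *Sema3d* and *Sema4g* rose, and *Epha4* and *Sema3b* did not pass. Basal cell markers were lower in 3 of 5 (sums of 351 to 387 CPM in WT and 289 to 311 CPM in ArKI) and macrophage markers in 4 of 9 (282 to 409 and 251 to 342 CPM). Fibroblast markers were higher in 4 of 6 and lower in 1 (1112 to 1250 and 1218 to 1581 CPM), and no marker of these lists was at 0. Markers of sperm and late spermatids, of which 2 of 10 were tested, were lower in both, with sums of 11 to 76.3 CPM in WT and 2.03 to 5.45 CPM in ArKI. Schwann cell markers were higher in 1 of 3, with sums of 253 to 276 CPM in WT and 296 to 325 CPM in ArKI. The median log2 fold change of those tested was -0.017, so the sums do not stand for the whole list. Clear and narrow cell markers were higher in 3 of 6 and lower in 1 (225 to 243 and 204 to 245 CPM). The part of all these cells in the results of the IS was not tested. In bulk tissue, fewer cells of a type and less RNA per cell cannot be told apart.

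On the ephrin side the changes in the IS were small except for *Ephb1*. *Ephb1*, a receptor of B-type ephrins at chr9:101922128-102354693 on the minus strand, was close to the detection limit in WT IS at 0.919, 1.74, 1.65, 0.805 and 1.47 CPM, which is 6 to 16 counts. ArKI samples read 2.38, 3.2, 2.17, 3.2 and 2.77 CPM, all above the WT samples (log2 fold change 1.03, SE 0.25, adjusted p = 0.0042). *Epha1* (0.28 ± 0.061) rose, as did *Efna1* (0.29 ± 0.087), one of its ligands, and *Efnb2* (0.29 ± 0.076), a transmembrane ligand of EphB receptors, each without overlap between groups. The other 4 EphB receptors, the other 2 EphA receptors tested and the other 5 ephrins tested did not pass. *Epha2* (-0.88, SE 0.37) had WT replicate 3 at 15.1 CPM beside 3.63 to 6.51 CPM in the other WT samples.

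**Figure D2:**
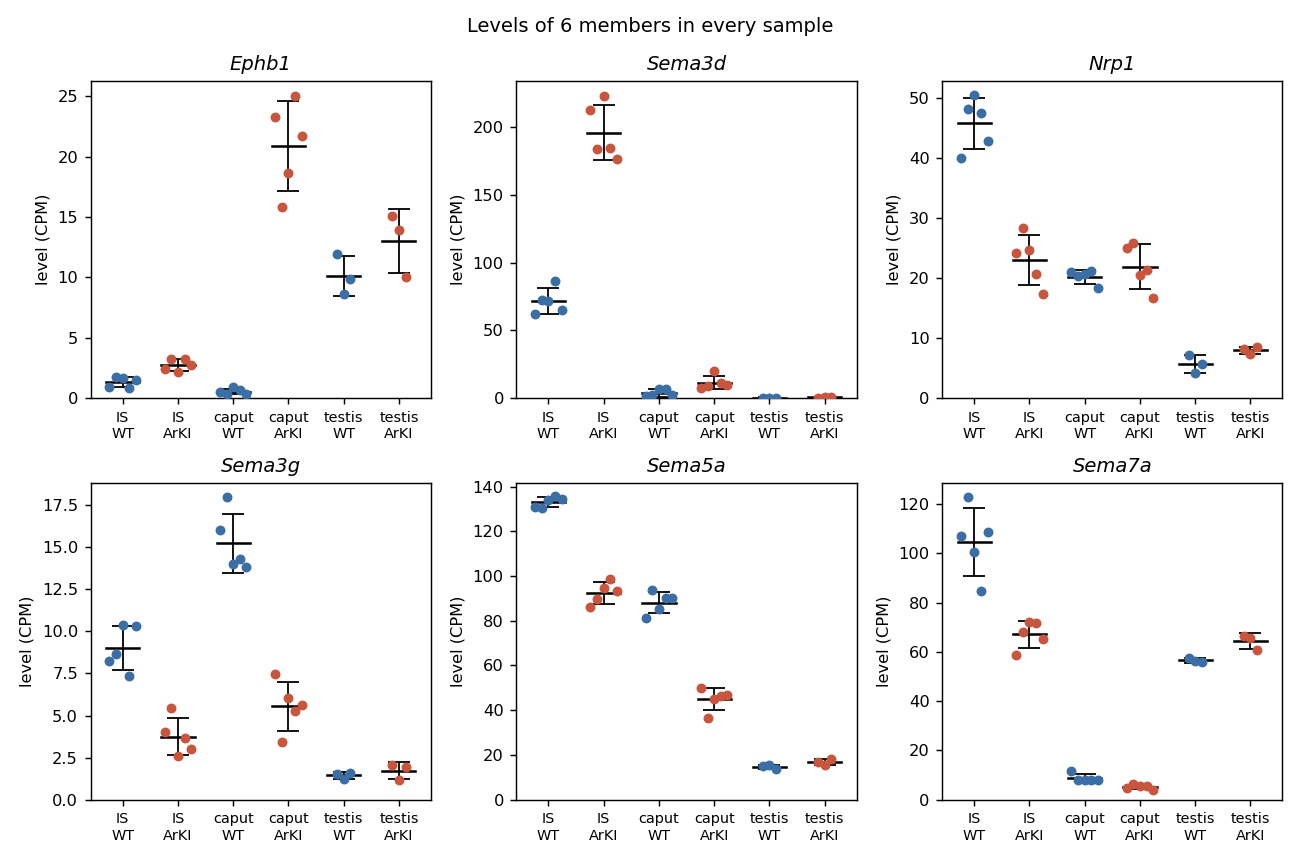
CPM of Ephb1, Sema3d, Nrp1, Sema3g, Sema5a and Sema7a in each of the 26 samples (points), with the mean (line) and SD (bar) of each group. Ephb1 is near 0 in WT caput and at 15.8 to 25.0 CPM in ArKI caput, and in the IS every ArKI sample of Nrp1 is below every WT sample.

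In the caput, 30 of 43 members tested differed between ArKI and WT, most of them by less than 2-fold. Here 20 were higher in ArKI, against 13.7% of all genes tested, and 10 were lower, against 14.0% of all genes, so both shares of the members were above those of all genes, a description with no test. The median log2 fold change of the members was 0.21, while that of all genes was 0.0017. Of the 25 ligands tested, 11 rose and 6 fell, and of the 18 receptors 9 rose and 4 fell. All 8 plexins tested and all 5 EphB receptors tested passed, whereas none of 3 EphA receptors and neither neuropilin did. The study's limits kept *Ephb1* and *Sema3g*, where 4.98% of all genes passed. ArKI and WT samples were separate in 17 members, 16 of them among the 30, against 19.9% of all genes. Without the 3 caput libraries that held the most IS RNA (WT replicates 3 and 4, ArKI replicate 3), 13 members rose and 8 fell among 7 samples.

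*Ephb1*, whose promoter stretch holds 10 CG dinucleotides, had by far the largest change of any member tested in the caput. WT samples were at 0.482, 0.31, 0.882, 0.692 and 0.332 CPM, from 3 to 8 counts each. ArKI samples were at 23.3, 15.8, 18.6, 25 and 21.7 CPM, from 74 to 304 counts. The lowest ArKI sample was thus many times the highest WT sample, and the fitted difference was 38.3-fold (log2 fold change 5.26, SE 0.21, adjusted p = 3e-11). It stayed at a log2 fold change of 5.79 without the libraries with most IS RNA and at 5.29 with IS RNA as a covariate. WT testis held 11.9, 8.61 and 9.88 CPM, so that every ArKI caput sample read above every WT testis sample and every WT caput sample below them. Markers of sperm and late spermatids went the other way in the caput, 10 of 10 lower in ArKI, with a summed level of 243 to 381 CPM in WT and 37.8 to 108.8 CPM in ArKI, and their part in the result was not tested.

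The other EphB receptors changed in both directions. *Ephb2* rose from 5.31, 6, 7.5, 5.31 and 5.54 CPM to 8.94, 11.5, 8.93, 11.7 and 8.96 CPM (log2 fold change 0.73, SE 0.14, adjusted p = 0.00071), and *Ephb4*, the venous receptor of *Efnb2*, by less (0.32 ± 0.089). *Ephb3* fell from 26.6, 30.4, 31.5, 26.1 and 28.6 CPM to 20.2, 18.8, 22, 22.5 and 21.5 CPM (log2 fold change -0.45, SE 0.072, adjusted p = 0.00015). The kinase-inactive *Ephb6* fell from 83.2, 91.9, 73, 78.2 and 81.5 CPM to 62.1, 49.1, 58.3, 63.8 and 57.5 CPM (log2 fold change -0.49, SE 0.067, adjusted p = 2.9e-05). In none of the 5 EphB receptors did the groups overlap. Among their ligands *Efnb2* rose (0.43 ± 0.089) with overlapping samples, and *Efnb1* did not pass (0.087). Of the A ephrins, *Efna5* (0.47 ± 0.13) and *Efna1* (0.21 ± 0.071) rose, whereas the receptors *Epha1* (0.093), *Epha2* (-0.33) and *Epha4* (0.21) did not pass.

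*Sema3d* and *Sema3g* had the largest changes among the class 3 members tested, in the IS and in the caput alike. *Sema3d* was at 1.35, 1.96, 6.61, 6.69 and 1.88 CPM in WT and 7.22, 8.97, 20, 11 and 9.99 CPM in ArKI caput, every ArKI sample above every WT sample (log2 fold change 1.66, SE 0.49, adjusted p = 0.034). Its level followed the IS genes within each genotype: the 2 WT libraries at 6.61 and 6.69 CPM were those with 1418 and 1592 CPM of *Rnase10* plus *Cst8*, and the highest ArKI library was the one with 702 CPM. The WT libraries held 189 to 1592 CPM of these IS genes and the ArKI libraries 163 to 702 CPM, the highest level being in WT. Without the 3 libraries the log2 fold change of *Sema3d* was 2.42, and with IS RNA as a covariate 2.58, both past the threshold. Its call in all 10 samples was lost without WT replicate 1, 2 or 5 or ArKI replicate 2, 3, 4 or 5, with an adjusted p of up to 0.077. *Sema3g* fell from 16, 18, 14, 14.3 and 13.8 CPM to 7.45, 3.42, 6.04, 5.27 and 5.63 CPM, without overlap (log2 fold change -1.43, SE 0.14, adjusted p = 7.4e-07). *Sema3f* rose (log2 fold change 0.59, SE 0.099, adjusted p = 0.00025), and *Sema3c*, the member with the highest level per length in the caput, fell slightly (-0.17 ± 0.059), a call that was lost under library size scaling (-0.13, adjusted p 0.15).

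**Figure D3:**
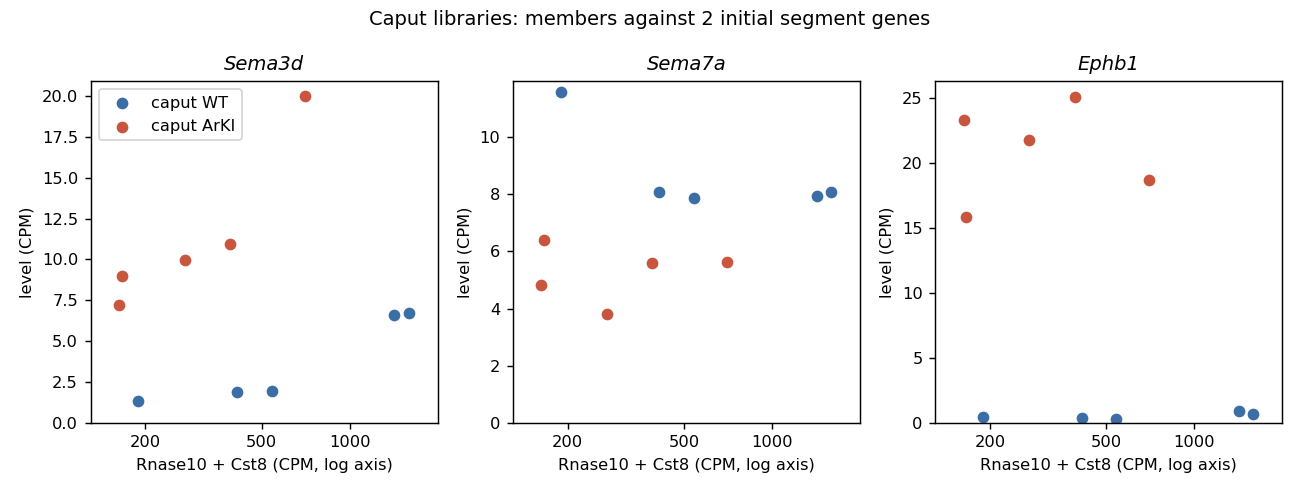
CPM of Sema3d, Sema7a and Ephb1 in the 10 caput libraries against the summed CPM of Rnase10 and Cst8, genes of the initial segment (log axis). Sema3d is above WT in ArKI libraries across 163 to 702 CPM of these genes, and Ephb1 is at 15.8 to 25.0 CPM in ArKI libraries and below 1 CPM in WT libraries.

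Of the surface-held semaphorins, *Sema5a* had the largest fall in the caput. It went from 81.2, 93.9, 85.4, 90 and 90.2 CPM in WT to 50.1, 36.5, 44.9, 46.4 and 47 CPM in ArKI (log2 fold change -0.97, SE 0.064, adjusted p = 8.3e-09). *Sema7a* fell from 11.6, 7.86, 7.94, 8.08 and 8.08 CPM to 4.81, 6.41, 5.62, 5.6 and 3.8 CPM (log2 fold change -0.77, SE 0.16, adjusted p = 0.0016), and *Sema4g* rose from 11, 9.82, 10, 9 and 9.3 CPM to 18.8, 14.7, 17.2, 16.1 and 16.9 CPM (log2 fold change 0.76, SE 0.092, adjusted p = 9e-06), both without overlap. These 2 genes are higher in the IS than in the caput: without the 3 libraries richest in IS RNA their values were -0.89 and 0.72, and with IS RNA as a covariate -0.87 and 0.71, past the threshold in each. Class 6 members rose, *Sema6b* (0.69 ± 0.23), *Sema6a* (0.60 ± 0.17) and *Sema6d* (0.48 ± 0.16), except *Sema6c*, which did not pass (-0.42). *Sema5b* (0.67 ± 0.14) and *Sema4c* (0.26 ± 0.066) rose, and *Sema4b* (-0.25 ± 0.074) and *Sema4a* (-0.17 ± 0.061) fell by small amounts.

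All plexins tested in the caput passed, each with a change below 2-fold. *Plxna2* rose from 24.4, 26.3, 23.7, 21.9 and 22.5 CPM to 42.3, 29.9, 36.2, 33.4 and 33 CPM, without overlap (log2 fold change 0.55, SE 0.083, adjusted p = 8.5e-05), and *Plxnb1*, the receptor of *Sema4d*, also rose without overlap (0.37 ± 0.074). The *Sema7a* receptor *Plxnc1* (0.78 ± 0.23), *Plxna4* (0.58 ± 0.18), *Plxnd1* (0.30 ± 0.082) and *Plxna1* (0.22 ± 0.066) rose with overlapping samples. *Plxna3* (-0.43 ± 0.086) and *Plxnb2* (-0.22 ± 0.073) fell, and the call of *Plxnb2* was lost under library size scaling (adjusted p 0.15). *Nrp1* was at 21, 20.3, 20.6, 21.1 and 18.3 CPM in WT and 25.1, 25.8, 20.5, 21.3 and 16.6 CPM in ArKI and did not pass (log2 fold change 0.074, SE 0.11, adjusted p = 0.67), nor did *Nrp2* (log2 fold change 0.18, SE 0.14, adjusted p = 0.41). Endothelial markers were at 123 to 132 CPM in WT and 109 to 131 CPM in ArKI caput, 1 of 9 higher and 1 lower. Summed fibroblast markers were at 772 to 902 CPM in WT and 917 to 2164 CPM in ArKI caput, with 1 of 6 higher. Summed Schwann cell markers were at 253 to 272 CPM and 335 to 370.0 CPM, with 1 of 3 higher and 1 lower and a median log2 fold change of -0.19. Clear and narrow cell markers were higher in 4 of 6 and lower in 1 (sums of 291 to 338 CPM in WT and 276 to 386 CPM in ArKI), and macrophage markers higher in 1 of 9 (151 to 208 and 192 to 315 CPM). No marker of these lists was at 0, and their part in the plexin values was not tested.

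Of the 30 calls in the caput, 11 were lost when 1 library was left out. Besides *Sema3d*, this held for *Plxna1* without ArKI replicate 1 (adjusted p 0.058), *Plxnc1* without ArKI replicate 5 (0.059) and *Sema4b* without WT replicate 2 (0.063). *Plxna4* lost its call without WT replicate 1 or 4 or ArKI replicate 1 or 5 (adjusted p up to 0.076), and *Sema6d* without WT replicate 3 or 4 or ArKI replicate 1 or 4 (up to 0.083). *Sema6b* lost it without WT replicate 1, 3 or 5 or ArKI replicate 2 or 4 (adjusted p up to 0.10), and *Efna1* without WT replicate 4 or 5 or ArKI replicate 1, 3 or 4 (up to 0.094). *Plxnb2* lost it without WT replicate 1, 2 or 5 or ArKI replicate 1, 3, 4 or 5 (adjusted p up to 0.085). *Sema3c* lost it without WT replicate 1, 2, 4 or 5 or ArKI replicate 2, 3 or 4 (adjusted p up to 0.12). *Sema4a* lost it without WT replicate 2, 3, 4 or 5 or ArKI replicate 1, 2, 4 or 5 (adjusted p up to 0.12), and kept it under 5 of 19 alternatives. It was also lost under library size scaling, no filter, limma voom and a replicate block, without the libraries with most IS RNA, and with IS RNA as a covariate (-0.093, adjusted p 0.27). That covariate also ended the calls of *Plxnc1* (adjusted p 0.057), *Sema6b* (0.056), *Plxna4* (0.096), *Sema6d* (0.11) and *Sema4b* (0.055). In the caput 15 members stayed past the threshold under every one of 19 alternatives, namely *Ephb1*, *Ephb2*, *Ephb3*, *Ephb6*, *Efnb2*, *Sema3f*, *Sema3g*, *Sema4g*, *Sema5a*, *Sema5b*, *Sema7a*, *Plxna2*, *Plxna3*, *Plxnb1* and *Plxnd1*. Without the shallow ArKI replicate 2, 18 members rose and 8 fell.

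**Figure D4:**
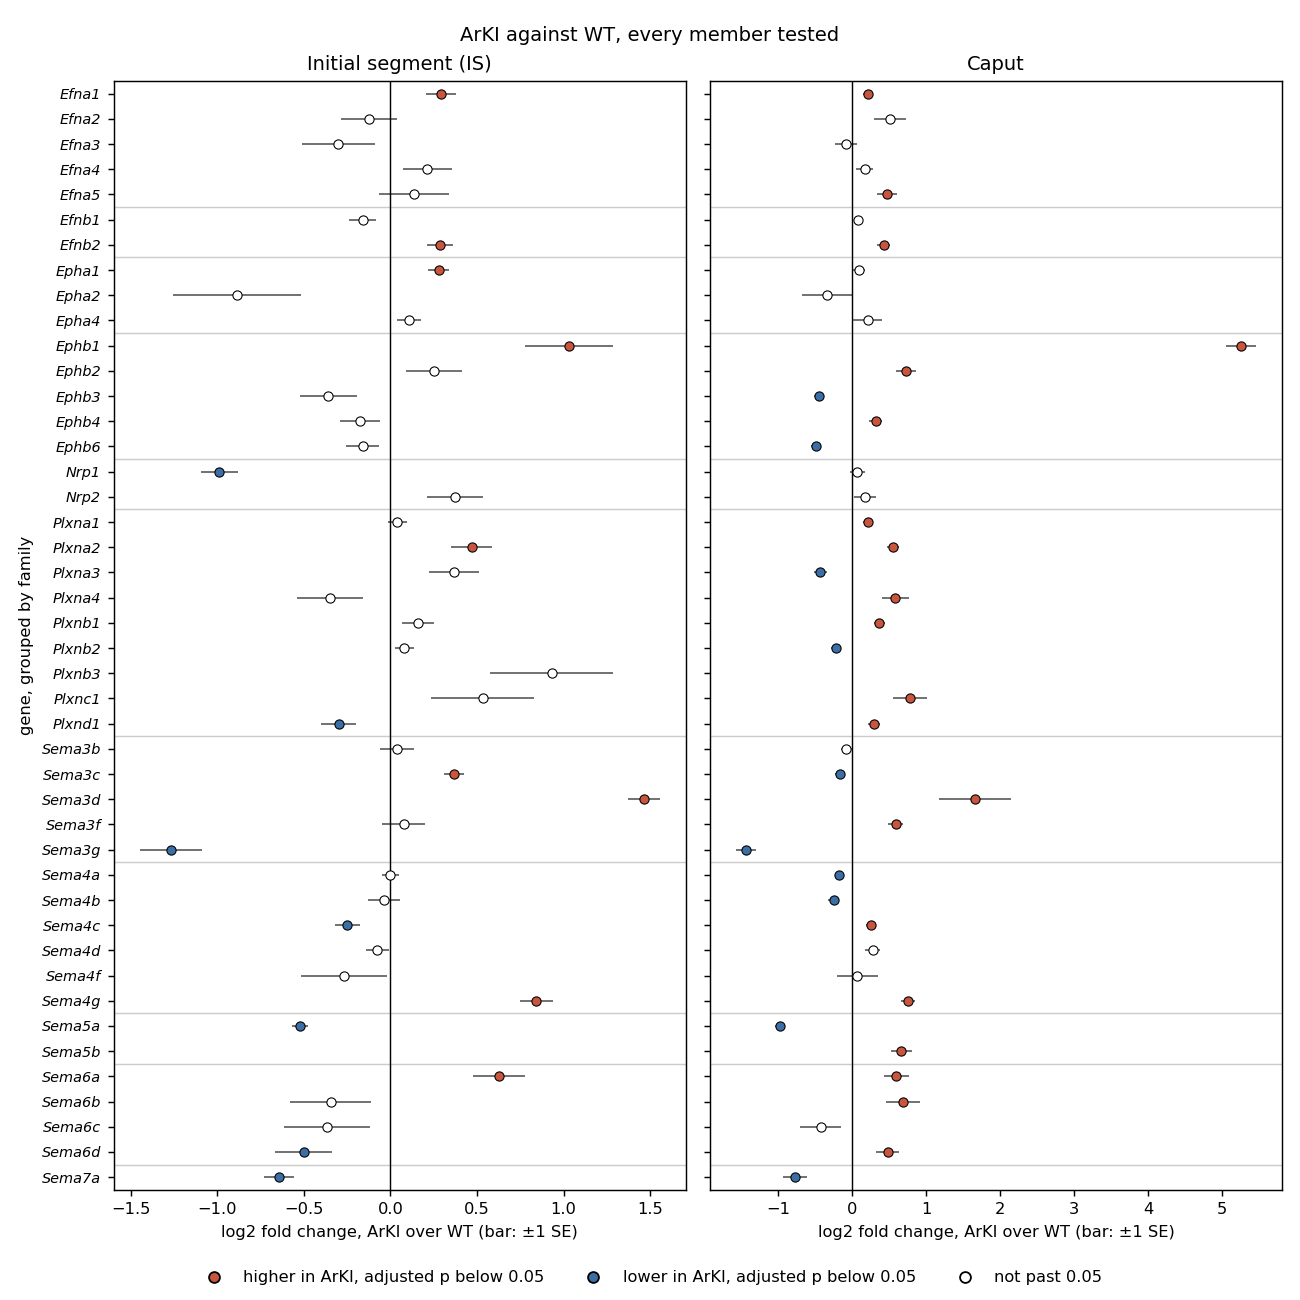
Log2 fold change of ArKI over WT for each member tested in the IS (left) and the caput (right), with bars of 1 SE and genes grouped by family (the caput axis is wider). Sema3d, Sema4g and Sema6a lie to the right and Sema3g, Sema5a and Sema7a to the left in both segments, and Ephb1 in the caput stands at 5.26.

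Both segments were set against each other by a test of the difference between their ArKI effects. The methods give 5 mice of each genotype for both segments, but which samples share a mouse is not given, so the test treats them as separate. Of 47 members tested, 9 had an effect that was higher in the caput than in the IS, against 7.38% of all genes, and 5 a lower one, against 7.77%. There were 14 members that passed in both segments, which is 87.5% of the IS calls and 46.7% of the caput calls. Over all genes, those that passed in both were 41.0% of the IS calls and 42.8% of the caput calls, given as a description. Among these *Efna1*, *Efnb2*, *Ephb1*, *Plxna2*, *Sema3d*, *Sema4g* and *Sema6a* rose in both, and *Sema3g*, *Sema5a* and *Sema7a* fell in both. *Sema3c* rose in the IS and fell in the caput, and its effects differed by -0.54 (SE 0.087, adjusted p = 9e-05). *Plxnd1* (0.60 ± 0.13), *Sema4c* (0.50 ± 0.098) and *Sema6d* (0.98 ± 0.23) fell in the IS and rose in the caput.

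The largest difference between segments was that of *Ephb1* (4.22 ± 0.36, adjusted p = 1.3e-08). For *Nrp1*, which fell in the IS, the effects differed by 1.05 ± 0.16 (adjusted p = 6.9e-05). The effect was also higher in the caput for *Sema6b* (1.03 ± 0.33), *Plxna4* (0.93 ± 0.26), *Sema3f* (0.51 ± 0.17) and *Ephb4* (0.50 ± 0.15). It was lower for *Plxna3* (-0.80, SE 0.16) and *Plxnb2* (-0.30, SE 0.096), which fell in the caput and did not pass in the IS, and for *Sema5a* (-0.45, SE 0.077), which fell in both. For *Sema3d* (0.23), *Sema3g* (-0.16), *Sema4g* (-0.087) and *Sema7a* (-0.15) the difference did not pass. *Sema3e*, a ligand that binds *Plxnd1* directly, was near the detection limit: it had 5 to 15 counts in WT caput and 0 to 5 in ArKI caput, and in the IS 5 to 12 in WT and 1 to 10 in ArKI. Its effects differed by -2.18 (SE 0.71, adjusted p = 0.038), and the call was lost without any one of 10 of the 20 libraries, with values from -3.10 (without ArKI replicate 3 of the caput) to -1.93 over the libraries left out and an adjusted p of up to 0.082. Without the 3 caput libraries with most IS RNA it was -3.16. The 10 libraries were WT replicates 1 and 3 and ArKI replicates 2, 3 and 4 of the IS, and WT replicate 1 and ArKI replicates 1, 2, 4 and 5 of the caput. Endothelial markers had a higher effect in the caput in 5 of 9 and smooth muscle markers in 5 of 7, and their part in these differences was not tested.

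Further calls of this test were lost with 1 library left out, and with a replicate block those of *Sema3f* (0.50, adjusted p 0.072) and *Plxnb2* (-0.30, adjusted p 0.097) were lost too. Library size scaling ended the same pair (adjusted p 0.052 and 0.096), and limma voom ended those of *Sema3e* (adjusted p 0.062) and *Sema6b* (0.053). *Plxnb2* lost it without ArKI replicate 3 or 5 of the IS (adjusted p up to 0.078). *Ephb4* lost it without WT replicate 2 or ArKI replicate 1, 2 or 4 of the IS, or WT replicate 5 or ArKI replicate 1 of the caput (up to 0.060), and also without the 3 caput libraries with most IS RNA (adjusted p 0.065). *Sema6b* lost it without WT replicate 3 or 4 or ArKI replicate 2 or 5 of the IS, or WT replicate 1, 3 or 5 or ArKI replicate 2 or 4 of the caput (adjusted p up to 0.072). *Sema3f* lost it without 13 libraries, WT replicates 1, 2 and 3 and ArKI replicates 1, 2 and 4 of the IS and WT replicates 1, 2, 4 and 5 and ArKI replicates 1, 4 and 5 of the caput (adjusted p up to 0.086).

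In the testis no member passed. Of 47 members tested, 0 were higher, against 1.64% of all genes, and 0 were lower, against 0.328% of all genes, by edgeR's quasi-likelihood test, and DESeq2 and limma gave 0 as well. At an unadjusted p below 0.05 there were 12 of the 47 members, against 13.1% of all genes. Under the study's limits for the testis, an adjusted p below 0.2 and a fold change above 2, 0 members passed, against 0.833% of all genes. The members with the largest estimates were *Efna1* (0.88 ± 0.37, adjusted p = 0.29), *Sema3b* (0.62 ± 0.23, adjusted p = 0.23) and *Ephb3* (-0.51, SE 0.18, adjusted p = 0.2). *Ephb1* was at 11.9, 8.61 and 9.88 CPM in WT and 15.1, 13.9 and 10 CPM in ArKI (log2 fold change 0.32, SE 0.15, adjusted p = 0.37). *Nrp1* was at 7.26, 4.22 and 5.61 CPM and 8.11, 7.3 and 8.48 CPM (log2 fold change 0.43, SE 0.17, adjusted p = 0.25), and *Nrp2* read -0.094 (SE 0.13). Log2 fold changes of the 8 plexins tested lay between -0.27 for *Plxna4* and 0.16 for *Plxnb1*.

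The Eph receptors *Epha10*, *Epha6* and *Epha8* had no more than 3 counts in any epididymal sample and far more in every WT testis sample. Against WT IS, 16 of 52 members tested were higher, where 49.4% of all genes were, and 32 were lower, where 42.5% were. Against WT caput, 19 were higher, where 48.8% of all genes were, and 25 were lower, where 43.2% were. Scaling by library size alone moved the median log2 fold change of all genes from 0.19 to -0.22 against the IS and from 0.16 to -0.23 against the caput, so values below are read against that shift. Among members that passed, it turned the direction of *Plxnd1* against IS (to -0.093) and of *Plxnb2* against caput (to -0.24). *Epha10*, a kinase-inactive receptor, was at 34.7, 34.4 and 32.6 CPM in WT testis, had 0 counts in all 10 IS samples, and was at least 498-fold higher than in WT IS, taking 3 counts over the WT IS group as the floor. Against WT caput, with 2 counts over the group, the ratio was 794 (95% counting interval 219 to 6566). *Epha6* had 3.10 to 4.65 CPM in WT testis and no count in WT IS or WT caput, so it was at least 54.9-fold and at least 58.3-fold higher. *Epha8* had 54.1 times its IS level (counting interval 18.1 to 265), on 3 counts over WT IS, 2 of them in replicate 3, and was at least 57.5-fold higher than in WT caput. The fitted log2 fold change of *Epha8* against WT IS was 5.61, and 6.59 without that replicate. These intervals cover counting error only.

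Further members high in the testis were *Sema5b*, at 89.6, 84.4 and 89.2 CPM and 7.03 ± 0.17 on the log2 scale above WT IS, *Epha7* (6.15 ± 0.28 against IS), *Plxnc1* (4.51 ± 0.15) and *Sema6c* (4.43 ± 0.15). Against WT caput the values were 4.59 for *Plxnc1*, 4.35 for *Epha7* and 4.30 for *Ephb1*. The largest differences the other way against IS were those of *Sema3d* (-8.06), *Epha4* (-6.70), *Epha1* (-6.62), *Sema3b* (-5.58) and *Efna1* (-4.52). Against caput they were those of *Epha1* (-5.97), *Efna1* (-5.44), *Plxna3* (-4.90), *Ephb6* (-4.18) and *Sema3c* (-3.84), so *Epha1* and its ligand *Efna1* were both far lower in the testis. The value of *Epha4* against IS was -7.40 without WT replicate 1 of the testis. Of the neuropilins, *Nrp1* was lower in the testis, at -2.89 against IS and -1.72 against caput, whereas *Nrp2*, at -0.30 and 0.15, did not pass. Under library size scaling *Nrp2* read -0.71 against IS and passed, and -0.24 against caput without passing. Among plexins, *Plxna2* was higher than in both segments (2.03 and 1.18), and *Plxna1* differed from the caput (0.76) but did not pass against the IS (-0.041), where library size scaling gave -0.45, past the threshold. *Plxnb2* was higher than in the IS (0.53) and, under TMM scaling, than in the caput (0.15), where library size scaling gave -0.24 in the opposite direction. *Plxnb1* was lower than in both (-1.03 and -0.70), as was *Plxna3* (-2.01 and -4.90). *Plxnd1* passed as higher than in the IS under TMM scaling (0.32), read -0.093 under library size scaling and did not pass against the caput (-0.054), where library size scaling gave -0.44, past the threshold. *Plxnb3* was lower than in the IS (-2.73) and did not pass against the caput, and *Plxna4* passed in neither.

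Members that were not tested were close to the detection limit. In the IS they were *Efnb3*, *Epha3*, *Epha5*, *Epha6*, *Epha7*, *Epha8*, *Epha10*, *Sema3a*, *Sema3e* and *Sema5b*, and in the caput *Plxnb3* took the place of *Sema5b*. No more than 3 counts in any sample were seen for *Epha10*, *Epha6*, *Epha5* and *Epha8* in both IS groups, for *Epha7* in WT IS and *Epha3* in ArKI IS. In the caput this held for *Epha10*, *Epha6* and *Epha8* in both groups and for *Plxnb3* in WT, which was also at that level in WT testis. *Sema3a*, a neuropilin ligand, had 2 to 9 counts in WT caput and 8 to 19 in ArKI caput. *Epha5* had 8 to 18 counts in WT caput and 0 to 6 in ArKI caput, and both are given as counts without a test.

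Genes beyond the members, 46 linked to semaphorins and 37 linked to Eph receptors, were followed in the same fits. Besides co-receptors and effectors, the semaphorin list holds the vascular growth factors *Vegfa* and *Vegfc*, their receptors, the processing enzyme *Furin* and *Lgals1*. On the semaphorin side 4 rose and 11 fell of 41 tested in the IS, against 15% and 14.6% of all genes, with medians of -0.13 for the list and 0 for all genes. The largest falls were *Flt1* (log2 fold change -1.47, SE 0.108) and *Kdr* (-0.58, SE 0.108), receptors of vascular growth factors that share *Nrp1*, and the kinase *Fyn* (-0.84, SE 0.085). *Flt4*, the lymphatic receptor of the same family, rose (0.79, SE 0.12), as did its ligand *Vegfc* (0.77, SE 0.19) and *Lgals1* (0.31, SE 0.089). In the caput 8 rose and 7 fell of 42, against 13.7% and 14.0% of all genes, led by *Flt4* (1.98, SE 0.14), *Vegfc* (1.25, SE 0.23) and *Lgals1* (0.93, SE 0.27). *Kdr*, which fell in the IS, rose in the caput (0.91, SE 0.15), and is named there after its values were seen. The falls were led by *Mical2* (-1.49, SE 0.065), an actin-oxidizing effector of plexins, *Timd2* (-0.98, SE 0.25), a *Sema4a* receptor, and *Vegfa* (-0.69, SE 0.12). On the Eph side 6 rose and 7 fell of 33 in the IS, and 7 rose and 6 fell of 34 in the caput, beside the same shares of all genes. The phosphatase *Ptpro* rose in both (0.84, SE 0.23, and 1.499, SE 0.27), and the Rac regulator *Chn1* fell in both (-0.62, SE 0.13, and -0.72, SE 0.12), while its relative *Chn2* rose in the IS (1.01, SE 0.29) and fell in the caput (-1.41, SE 0.31). *Arhgef15* (-1.02, SE 0.18), an exchange factor of vessels, and *Cldn4* (-0.84, SE 0.066) led the falls in the IS, where *Ngef* (0.70, SE 0.17) rose. *Grip1* (-1.0, SE 0.19), an adaptor of B ephrins, fell in the caput, where *Arhgef19* (0.91, SE 0.12) and *Kalrn* (0.58, SE 0.14) rose. In the testis 0 of 42 and 0 of 34 passed by edgeR, against 1.64% and 0.328% of all genes.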

How the data were processed

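The authors aligned single-end reads of 26 samples to mm10 with STAR, counted uniquely mapped reads per RefSeq gene with Subread (version 1.5.1 per the submitters' processing notes), and deposited whole-number counts, 1 table each for epididymis and testis. The labels name the TruSeq RNA v2 kit and the methods a stranded TruSeq kit. The methods give 5 mice of each genotype for IS and caput and 3 for testis, without saying which samples share a mouse.

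Here, genes passing filterByExpr (minimum count 10, minimum total 15) were tested with edgeR 4.0.16 (R 4.3.3, TMM, robust quasi-likelihood), each genotype comparison within its tissue, the 20 epididymal samples together for the difference between segments, and the 13 WT samples together for the testis. Adjustment was by Benjamini-Hochberg over all genes tested, and an adjusted p below 0.05 passed. CPM used 1 TMM scale over 26 samples, and RPKM used GENCODE M21 exon lengths, matched for all 53 members. Alternatives were DESeq2 1.42.0, limma voom (limma 3.58.1), other scalings, no filter, a replicate block and leaving out samples. Leaving out caput libraries rich in IS RNA, and IS RNA as a covariate, were added after seeing the data. ROTS, named in the methods, was not run. Fits were tested on simulated data. The targeted gene is not reported here.

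Members and lists were chosen with earlier results of these data known. Named members passed in a genotype comparison or between segments, were among the 10 highest per length in a WT tissue or the 5 largest differences each way between WT tissues, were neuropilins or plexins, or had no more than 3 counts in every sample of a group.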

Additional observations from a re-analysis of the deposited data

Results flagged for a closer look

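In 6 of 172 groups of 5 samples, 1 sample stood apart from the rest, where chance gives about 1 in 20 (8.6 groups). *Epha2*, an EphA receptor, was at 15.1 CPM in WT replicate 3 of the IS (next sample 6.51) and at 6.50 CPM in WT replicate 3 of the caput (next sample 2.89). *Ephb3* was at 5.23 CPM in WT replicate 4 of the IS (next 7.42). *Plxnd1* was at 22.9 CPM in WT replicate 3 of the caput (next 27.4), and *Sema7a* at 11.6 CPM in WT replicate 1 of the caput (next 8.08). *Nrp2* was at 14.3 CPM in ArKI replicate 2 of the caput (next 10.5), the shallowest library and the one richest in fibroblast markers.

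The ArKI effect differed between caput and IS, by the interaction test, in 14 members. On the log2 scale the caput effect minus the IS effect was 4.22 for *Ephb1*, 1.05 for *Nrp1*, 1.03 for *Sema6b*, 0.98 for *Sema6d*, 0.93 for *Plxna4*, 0.60 for *Plxnd1*, 0.51 for *Sema3f*, 0.50 for *Sema4c* and 0.50 for *Ephb4*. It was -2.18 for *Sema3e*, -0.80 for *Plxna3*, -0.54 for *Sema3c*, -0.45 for *Sema5a* and -0.30 for *Plxnb2*.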

How the results depend on the processing

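The members followed, those that passed between genotypes and in the interaction and the largest differences between WT tissues, kept their direction under every alternative run. Of their values, 174 lost the threshold and 1652 kept it. These counts include the values judged at the study's stricter limits, which are not among the 19 alternatives given for the caput. Under the study's limits 2 members were higher and 1 lower in the IS, and 1 higher and 1 lower in the caput. Without the 3 caput libraries with most IS RNA, an alternative chosen after seeing the data, 13 members were higher in the caput, on 7 samples. Lost there were *Plxnc1*, *Sema6b*, *Sema6a*, *Plxna4*, *Sema6d*, *Efna5*, *Ephb4*, *Sema4c*, *Sema4b*, *Plxnb2*, *Efna1* and *Sema4a*. With 1 library left out the calls ranged from 9 to 12 higher and 5 to 8 lower in the IS, 16 to 20 and 6 to 9 in the caput, and 6 to 10 and 4 to 6 in the test of the difference between segments. Between WT tissues they ranged from 13 to 15 and 19 to 21 for caput against IS, 15 to 17 and 31 to 34 for testis against IS, and 17 to 19 and 23 to 25 for testis against caput. In the testis 0 passed under every alternative.

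Not every same-numbered pair had a correlation over 0.1, so the numbers were not taken to pair the samples: the correlations of same-numbered deviations between ArKI and WT ran from -0.070 to 0.19 in the IS, -0.15 to 0.16 in the caput and -0.0090 to 0.054 in the testis, and 2 of 5, 1 of 5 and 1 of 3 samples correlated best with their own number. Between IS and caput, which may share mice, they ran from -0.0033 to 0.18 in WT (3 of 5 best with their own number) and -0.086 to 0.18 in ArKI (2 of 5). Their mean was 0.091 in WT, against -0.023 for samples of different numbers, and 0.022 in ArKI, against -0.0043. Whether equal numbers mark 1 mouse in these segments was thus not settled. A replicate block gave 11 higher and 8 lower in the IS, 20 and 9 in the caput, 0 and 0 in the testis and 8 and 4 for the difference between segments. For WT tissues the block gave 15 and 21, 17 and 31, and 18 and 26. Depth limits members near 3 counts, chiefly EphA receptors, *Sema3a* and *Sema3e* in the epididymis. Library size scaling, run on every member, turned *Plxnd1* (testis against IS, -0.093) and *Plxnb2* (testis against caput, -0.24) among those that passed, and ended the calls of *Sema3c*, *Plxnb2* and *Sema4a* in the caput, of *Sema3f* and *Plxnb2* in the difference between segments, of *Efna3* and *Plxnd1* for testis against IS and of *Efna2*, *Sema4c*, *Sema4f* and *Sema4g* for testis against caput. It added *Plxna3* and *Plxnb3* in the IS, *Sema4d* in the caput, *Nrp2* and *Plxna1* for testis against IS, and *Plxnd1*, *Sema6a* and *Sema6b* for testis against caput.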
